A study of Mus musculus with 4 samples.

Results

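The genes described here carry glucose through glycolysis and the pentose phosphate pathway or belong to the hypoxia response. A fixed list of 39 genes was looked up among the probe sets that name 1 gene, and 35 of them were found, out of 18193 genes on the arrays. Each gene is represented by its brightest probe set, taken by the mean over the 4 arrays. All 35 reached log2 6, the floor used for comparisons, on at least 1 array, and 29 did so on all 4. Gapdh, Gpi1, Eno1 and G6pdx had no probe set that could be used.

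The samples were mouse bone marrow cells grown with the growth factor M-CSF for 5 days, which yields macrophages. They came from wild-type mice or from mice labelled Jmjd3-/-, called knockout here, in which the gene of the histone H3 lysine 27 demethylase Jmjd3, Kdm6b, is disrupted. Each genotype was left unstimulated or given lipopolysaccharide (LPS), 100 ng/ml during 4 h. With 1 array per group, the 4 arrays have no replicates. Strain and age of the mice, which stretch of Kdm6b is missing, and how many animals stand behind an array are unstated in the sources used here. Values are log2 RMA intensities of Affymetrix probe sets, and levels on the 4 arrays are given in 1 order throughout: unstimulated wild type, wild type with LPS, unstimulated knockout, knockout with LPS. A difference between 2 arrays has no replicate check and no p-value, and is counted at 2-fold or more where the brighter array reached log2 6. The words rose and fell are kept for genes that passed a test over all 4 arrays, limma's additive model of genotype and LPS with Benjamini-Hochberg adjustment over 9385 genes at 0.05. It takes its spread from how far the genotypes' LPS responses differ, with 1 residual degree of freedom, so a gene whose response differed between genotypes is less likely to pass.

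Glucose enters the cell through carriers such as Slc2a1 and is trapped by the hexokinases. Phosphofructokinase commits it to glycolysis and is switched on by fructose 2,6-bisphosphate, which the bifunctional enzymes of the Pfkfb family make and break down. Pyruvate is then turned into lactate and exported by monocarboxylate carriers, or enters the mitochondria, while the pentose phosphate pathway branches off at glucose 6-phosphate to supply NADPH and ribose. Hypoxia-inducible factors, dimers of an alpha subunit (Hif1a or Epas1) with Arnt, activate many of these genes. Their alpha subunits are hydroxylated by the Egln enzymes when oxygen is present and then marked for destruction by Vhl. Macrophages activated by LPS are known for high glycolysis and for accumulation of Hif1a also in normal oxygen.

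The 4 arrays were comparable in overall level, with medians between 4.15 and 4.24, and 8 of 8 genes of an LPS response check list, such as Tnf and Il6, rose with LPS. Kdm6b itself read 10.33, 11.23, 9.82 and 10.82, so the targeted gene was not absent from the knockout arrays on this probe set, whose place relative to the deletion is unknown. All 9 measured macrophage markers, such as Csf1r, Adgre1 and Cd68, reached the floor on all 4 arrays, with summed linear intensities between 39050 and 42519. The brightest genes weigh most in such a sum. Singly, Itgam fell (-1.04) and Fcgr1 rose (0.76) in the knockout, and Mertk differed by -1.09 between genotypes with LPS. The knockout arrays also carried markers of other cells. The linear intensities of 11 measured granulocyte markers summed to 3468 and 4769 on the wild-type arrays and to 38035 and 38248 on the knockout arrays, and 3, 6, 11 and 11 of them reached the floor. Those of 13 stromal markers summed to 704 and 901 in wild type and to 26389 and 22767 in the knockout, with 3, 6, 10 and 11 at the floor. Of the granulocyte markers Mmp8 alone was lower in the knockout, at 11.14, 10.55, 8.71 and 7.14. Of the stromal markers past the floor on an LPS array, Thy1 alone was lower in the knockout with LPS (6.32 and 4.02). The dendritic cell markers that reached the floor were lower in the knockout, with 2, 3, 1 and 2 of 7 at the floor. Sums over the 7 genes were 4390 and 6138 in wild type and 1035 and 1239 in the knockout. They mostly follow Itgax, the brightest of these genes on all 4 arrays, which read 12.04, 12.35, 9.90 and 9.98. The part of these cells in the genotype differences below was not tested. In such bulk samples fewer cells of a type and less RNA per cell cannot be told apart.

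The region before the start of each gene was searched on either strand for ACGTG, a form of the core of the hypoxia response element. Many of these genes are known targets of hypoxia-inducible factors. Other forms were not searched, and the core means ACGTG below. RefSeq promoter sequences of build GRCm38.p6 matched 34 of the 35 genes, and the 250 bases upstream of each gene's most upstream start were read. The core was present in 15 of these 34 promoters, or 44.1%, against 16.5% of 27025 promoters in the table and 22.7% of 7664 promoters of genes that reached the floor. A match is a description of the letters and not evidence of a bound site. The windows below hold 60 bases each, from genes whose level changed or whose LPS responses differed and from Ldha and Pgk1, which hold 3 and 2 matches and did not pass in either test. Capitals mark the core, read as ACGTG or, on the other strand, CACGT. Both letterings overlap in the palindrome CACGTG, the E-box bound also by Myc, which is in the windows of Ldha, Slc16a1 and Bnip3. The promoters of Pfkm and, outside the window shown, Hif1a hold it too. It was in 5 of the 34 promoters (14.7%), against 6.04% of promoters in the table and 8.90% for genes that reached the floor.
Pfkfb3 (chr2:11553958-11554017, minus strand): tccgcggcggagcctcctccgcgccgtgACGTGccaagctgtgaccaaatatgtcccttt
Hk2 (chr6:82774475-82774534, minus strand): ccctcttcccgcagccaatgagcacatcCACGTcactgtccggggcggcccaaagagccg
Hk3 (chr13:55021510-55021569, minus strand): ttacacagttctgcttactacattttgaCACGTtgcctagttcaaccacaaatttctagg
Slc2a1 (chr4:119108681-119108740, plus strand): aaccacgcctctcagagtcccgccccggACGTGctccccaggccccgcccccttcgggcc
Hif1a (chr12:73907769-73907828, plus strand): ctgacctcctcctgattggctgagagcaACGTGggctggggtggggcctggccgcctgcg
Ldha (chr7:46845742-46845801, plus strand): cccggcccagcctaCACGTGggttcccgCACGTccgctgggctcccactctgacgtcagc
Pgk1 (chrX:106186941-106187000, plus strand): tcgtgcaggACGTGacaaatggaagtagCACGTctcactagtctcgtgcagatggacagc
Slc16a1 (chr3:104638437-104638496, plus strand): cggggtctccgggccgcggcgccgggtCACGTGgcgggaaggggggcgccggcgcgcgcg
Bnip3 (chr7:138909582-138909641, minus strand): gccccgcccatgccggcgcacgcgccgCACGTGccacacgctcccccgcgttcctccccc
Egln1 (chr8:124949291-124949350, minus strand): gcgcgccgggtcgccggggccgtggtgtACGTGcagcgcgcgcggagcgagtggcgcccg
Egln3 (chr12:54204065-54204124, minus strand): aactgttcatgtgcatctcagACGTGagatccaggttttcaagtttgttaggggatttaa
Among the genes described below that changed with LPS, the core was in the promoters of 4 of 7 that rose and in 0 of 6 that fell. The 4 were Pfkfb3, Hk2, Hk3 and Hif1a, and 11 of the 21 others held it. These counts are small and were given no test.

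**Figure D1:**
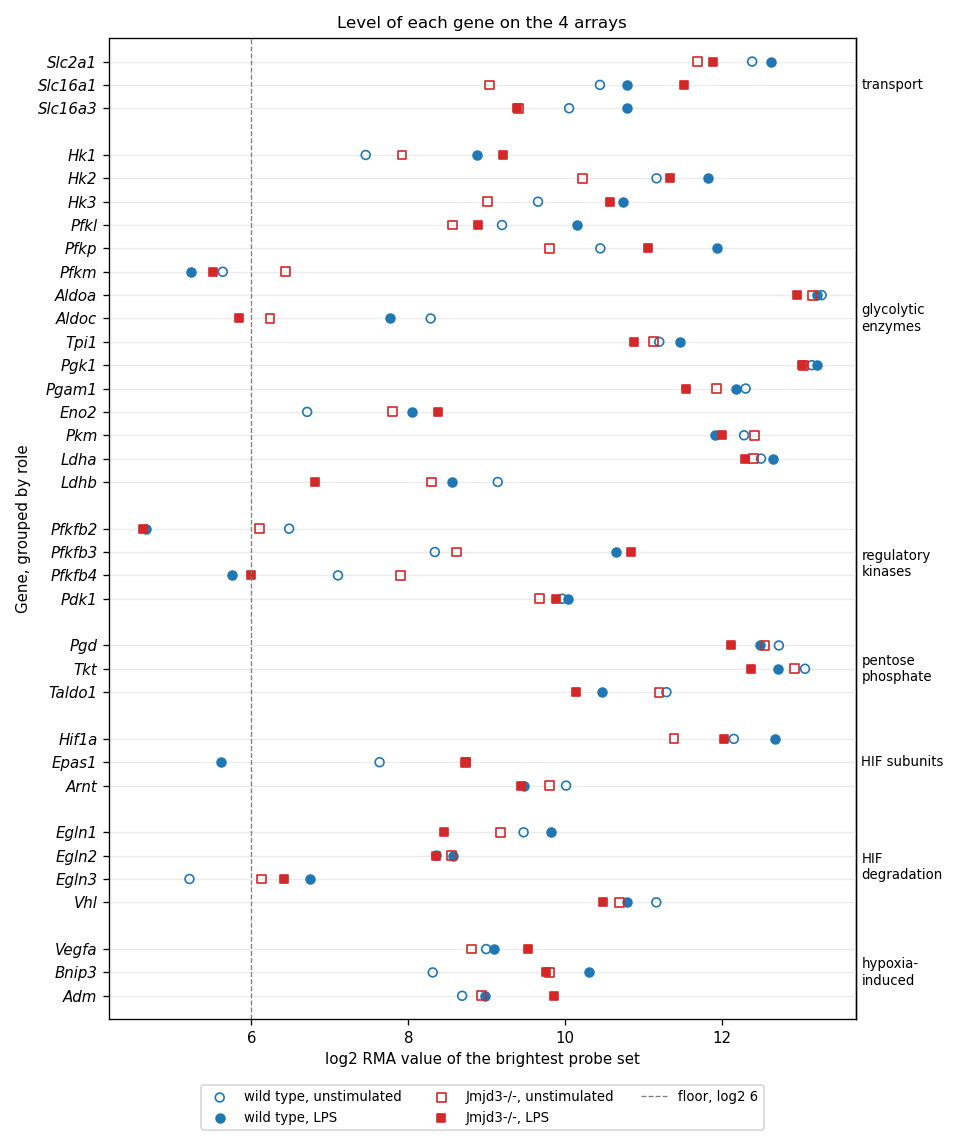
The log2 RMA value (horizontal axis) of each of the 35 genes (rows, grouped by role) on each of the 4 arrays, with circles for wild type, squares for knockout, open symbols for unstimulated and filled symbols for LPS. Most genes lie well above the floor at log2 6 (dashed line), Pfkfb2 and Pfkfb4 lie under it on both LPS arrays, and Aldoc is lower on both knockout arrays.

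With LPS, 7 of the 35 genes rose, 6 fell and 22 did not pass, in a test that called 11.2% of all genes as higher and 18.8% as lower. The genes that rose were 3 hexokinases, the platelet-type phosphofructokinase, Pfkfb3, Eno2 and Hif1a. Those that fell were Pfkfb2 and Pfkfb4, the pyruvate kinase gene Pkm, Ldhb and the pentose phosphate genes Tkt and Taldo1. The median effect was 0.02 over the 35 genes and -0.22 over all genes tested. Counted within a genotype, 7 genes were higher and 3 lower by at least 2-fold in wild type, where 9.86% and 14.3% of all genes were. In the knockout 6 were higher and 4 lower, against 11% and 15.5% of all genes. Fitted without genotype, the model called Pfkfb3 alone among these 13. Without limma's intensity trend Hk2, Hif1a, Eno2, Pkm, Ldhb and Tkt were not called.

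All 3 measured hexokinases, which phosphorylate glucose on entry, rose with LPS. Hk1 read 7.46, 8.88, 7.92 and 9.21, and rose 2.56-fold over both genotypes, by 1.35 ± 0.18 (SE) on the log2 scale (limma, adjusted p = 0.0110, with both genotypes in that direction). Hk3 read 9.66, 10.74, 9.01 and 10.57, and its rise of 1.33 ± 0.20 was of similar size (limma, adjusted p = 0.0140). In each of these genes both LPS arrays lay above both unstimulated arrays. Hk2, the inducible form, read 11.17, 11.82, 10.22 and 11.34, so its LPS difference was 0.66 in wild-type cells and 1.11 in knockout cells, and it rose by 0.89 ± 0.17 (limma, adjusted p = 0.0239). A second probe set of Hk1 and of Hk3 differed in the same direction with LPS in both genotypes.

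The phosphofructokinase isoforms, which catalyse the committed step, did not move alike. Pfkp, the platelet form, read 10.45, 11.94, 9.80 and 11.06 and rose by 1.37 ± 0.16, or 2.59-fold (limma, adjusted p = 0.00812, higher in both genotypes). Its dimmer probe sets gave differences of 1.46 and 1.27 in wild type and 1.55 and 0.93 in the knockout. The 0.93 lies between readings under the floor (4.59 and 5.51), and the 1.55 starts from a reading under it (5.37). Pfkl, the liver form, read 9.20, 10.16, 8.57 and 8.89, an LPS difference of 0.96 in wild-type cells and 0.32 in knockout cells, and did not pass (limma, adjusted p = 0.0980). Its 3 probe sets gave nearly the same values, between 0.95 and 0.96 in wild type and between 0.28 and 0.32 in the knockout. The dimmest of them lay under the floor on both knockout arrays (5.05 and 5.33). Pfkm, the muscle form, reached the floor on the unstimulated knockout array alone (5.63, 5.23, 6.43 and 5.51) and did not pass.

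The Pfkfb family, which sets the level of the phosphofructokinase activator, moved in opposite directions. Pfkfb3, the isoform with the highest kinase activity, read 8.34, 10.65, 8.61 and 10.84. It rose by 2.27 ± 0.18, or 4.81-fold, with nearly equal differences in wild type (2.31) and knockout (2.23) (limma, adjusted p = 0.00399). Pfkfb4 read 7.10, 5.76, 7.90 and 5.996 and fell by 1.63 ± 0.25 (limma, adjusted p = 0.0140, lower in both genotypes). Pfkfb2 read 6.48, 4.66, 6.10 and 4.62 and fell by 1.65 ± 0.34 (limma, adjusted p = 0.0262). Both LPS arrays of either gene lay under the floor, so the size of their falls rests on background readings. The other 3 probe sets of Pfkfb2 stayed under log2 4 on all arrays, and the other one of Pfkfb3 between 3.38 and 4.29. Pdk1, the kinase that shuts pyruvate dehydrogenase and keeps pyruvate out of the mitochondria, read 9.97, 10.04, 9.67 and 9.89 and did not pass; another of its probe sets above the floor differed by -0.56 and -0.26.

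Of the glycolytic enzymes after phosphofructokinase, Pgk1, Aldoa, Tpi1 and Pgam1 differed by at most 0.40 in size with LPS. Pgk1 (13.15, 13.22, 13.04 and 13.03), which makes the first ATP of the pathway, differed by 0.07 in wild-type cells and -0.02 in knockout cells. Aldoa read 13.27, 13.22, 13.16 and 12.96, Tpi1 11.20, 11.47, 11.12 and 10.89, and Pgam1 12.30, 12.18, 11.94 and 11.54. None of these aldolase, isomerase, kinase and mutase genes passed with LPS, and 2-fold was not reached in either genotype. Other probe sets of Aldoa and Pgk1 had the opposite sign with LPS, at 0.24 and -0.01 in wild type, and one of Tpi1 did so between unstimulated genotypes (0.02). Gapdh, often used as a reference gene, was represented by array control probe sets, and the one at its 3' end read 13.58, 13.55, 13.44 and 13.31.

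Of the enolases, Eno2, the form named for neurons, read 6.71, 8.05, 7.80 and 8.39 and rose by 0.96 ± 0.25 (limma, adjusted p = 0.0454), with a difference of 1.34 in wild type and 0.59 in the knockout. Pkm, which makes pyruvate, read 12.28, 11.91, 12.41 and 12.001 and fell by 0.39 ± 0.11 (limma, adjusted p = 0.0489), both LPS arrays lying under both unstimulated ones. The call of Pkm was lost when the array medians were set equal. The isoforms of lactate dehydrogenase differed. Ldha, the muscle-type subunit that favours lactate, read 12.50, 12.65, 12.41 and 12.30 with no call, while Ldhb, the heart-type subunit, read 9.14, 8.56, 8.30 and 6.81 and fell by 1.03 ± 0.27 (limma, adjusted p = 0.0472). The fall of Ldhb was 0.58 in wild-type cells and 1.49 in knockout cells, and 4 of 4 probe sets agreed in direction in both genotypes.

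**Figure D2:**
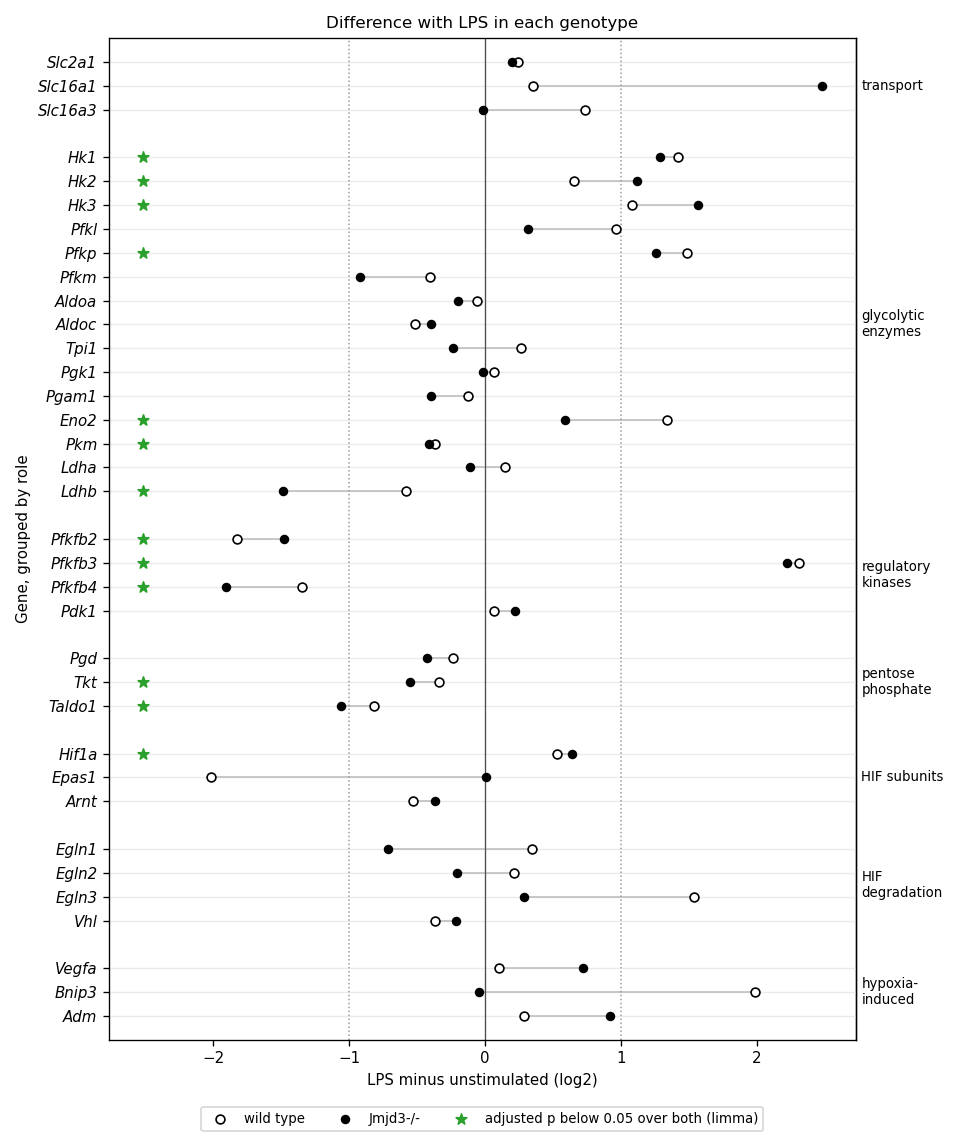
LPS minus unstimulated difference on the log2 scale (horizontal axis) for each of the 35 genes (rows, grouped by role), with open circles for wild type and filled circles for knockout, dotted lines at 2-fold and stars for genes that passed the test over both genotypes. Pfkfb3 lies above 2 in both genotypes and Pfkfb2 and Pfkfb4 under -1 in both, while Slc16a1, Bnip3, Epas1 and Egln3 have long bars between the genotypes.

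Among the carriers, Slc2a1, the main glucose transporter of these cells, read 12.39, 12.63, 11.69 and 11.89, LPS differences of 0.24 and 0.20 that did not pass (limma, adjusted p = 0.170). Slc16a3, the lactate exporter MCT4, read 10.05, 10.78, 9.40 and 9.39, with 0.73 in wild type and -0.02 in the knockout. Slc16a1, the monocarboxylate carrier MCT1, differed by 0.35 in wild-type cells and 2.48 in knockout cells. Neither monocarboxylate carrier passed over both genotypes (limma, adjusted p = 0.303 and 0.0959).

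The 3 measured pentose phosphate genes were lower with LPS in both genotypes. Taldo1, transaldolase of the non-oxidative branch, read 11.29, 10.47, 11.20 and 10.14 and fell by 0.94 ± 0.16, or 1.92-fold (limma, adjusted p = 0.0172). Tkt, transketolase of the same branch, read 13.06, 12.72, 12.93 and 12.38 and fell by 0.45 ± 0.10 (limma, adjusted p = 0.0312). In each, both LPS arrays lay under both unstimulated arrays. Pgd, the second dehydrogenase of the oxidative branch, read 12.73, 12.49, 12.55 and 12.12 and did not pass (limma, adjusted p = 0.0705), and its 4 probe sets differed by -0.24 to -0.44 in wild-type cells and by -0.29 to -0.60 in the knockout.

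In the hypoxia pathway Hif1a, the inducible alpha subunit, read 12.15, 12.68, 11.39 and 12.03 and rose by 0.58 ± 0.11 with LPS (limma, adjusted p = 0.0226, higher in both genotypes). Its 3 other probe sets were also higher with LPS in both genotypes, by between 1.004 and 1.68 in wild type and between 0.37 and 1.13 in the knockout. The 1.68 came from a probe set that reached the floor on the wild-type LPS array alone. Arnt, the common partner, read 10.01, 9.48, 9.81 and 9.44 and did not pass (limma, adjusted p = 0.120), and its probe sets disagreed in sign, with 0.85 on another one in wild type and 0.37 and 0.45 on others in the knockout. Vhl, which tags the alpha subunits for destruction, read 11.16, 10.79, 10.69 and 10.48, and the oxygen sensor gene Egln2 read 8.36, 8.58, 8.56 and 8.35, both without a call. Vegfa, the angiogenic factor, read 8.99, 9.10, 8.80 and 9.53, and Adm, the vasodilator peptide adrenomedullin, 8.69, 8.98, 8.94 and 9.86. Another probe set of Vegfa was higher in unstimulated knockout cells (0.36), where the brightest was lower (-0.19). On the brightest probe sets of both genes the LPS difference in the knockout (0.72 and 0.92) was larger than in wild type (0.10 and 0.29), and neither passed over both genotypes. The other probe set of Vegfa, above the floor on all arrays (7.35, 8.16, 7.71 and 8.19), had the larger LPS difference in wild-type cells, 0.81 against 0.49.

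Between genotypes, 3 of the 35 genes were lower in the knockout across both states, Aldoc, Slc2a1 and Hif1a, and 0 were higher, where the test called 3.12% of all genes as lower and 6.39% as higher. At an unadjusted p below 0.05 in the same limma fit there were 13 of 35 genes, against 24.4% of all genes. The median genotype effect was -0.22 over the 35 genes and 0.05 over all genes tested. In 22 of 35 genes both knockout values lay under the wild-type value of the same state, against 28.9% of all 9385 genes, and in 8 both lay above, against 40.4%. Counted by state at 2-fold, 3 genes were higher and 2 lower in unstimulated knockout cells, where 9.54% and 5.74% of all genes were. With LPS 1 was higher and 5 were lower, where 9.76% and 5.65% of all genes were.

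Aldoc, the aldolase form best known from brain, read 8.29, 7.77, 6.24 and 5.84 and fell by 1.99 ± 0.20 in the knockout, or 3.98-fold (limma, adjusted p = 0.00720, lower in both states). Both knockout arrays lay at or near the floor, and the gene's dimmer probe set differed in the same direction, by -1.63 and -1.03. That probe set read 6.08, 5.09, 4.46 and 4.05 and reached the floor on the unstimulated wild-type array alone, so its differences rest on background readings. Slc2a1 fell by 0.72 ± 0.11, or 1.65-fold, in the knockout (limma, adjusted p = 0.0214). Its 3 probe sets gave differences between -0.70 and -1.11 without and between -0.74 and -1.11 with LPS, and both knockout arrays lay under both wild-type arrays on the brightest. Hif1a fell by 0.71 ± 0.11 in the knockout (limma, adjusted p = 0.0255), with its knockout LPS value of 12.03 just under the unstimulated wild-type value of 12.15. On its other probe sets the knockout was lower by 0.88 to 1.38 without and by 1.51 to 2.01 with LPS. The dimmest of them, which gave the 2.01, read 5.09, 6.77, 4.08 and 4.76 and reached the floor on the wild-type LPS array alone. The calls of Slc2a1 and Hif1a were lost without the intensity trend, and those of all 3 genes when LPS was left out of the model. The second probe set of Hk1, above the floor with LPS, was lower in the knockout there (-0.34), where the brightest was higher (0.33).

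Other genes were lower on both knockout arrays without passing. Ldhb differed by -0.85 unstimulated and -1.75 with LPS, the latter 3.37-fold (limma over both states, adjusted p = 0.0548). Pfkp differed by -0.65 and -0.88 (limma, adjusted p = 0.0518), and Pfkl by -0.63 and -1.27 (limma, adjusted p = 0.0794). Slc16a3 differed by -0.65 and -1.40 and Hk2 by -0.95 and -0.49. Pfkp, with 4 of 9 alternative settings under the threshold, and Ldhb, with 2 of 9, lay near it. The abundant enzymes Pgk1, Aldoa, Ldha and Pkm differed by at most 0.35 in size in either state. Pgam1 differed more, by -0.37 without and -0.64 with LPS (limma over both states, adjusted p = 0.0829), and Tpi1 by -0.08 and -0.58 (limma, adjusted p = 0.343).

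**Figure D3:**
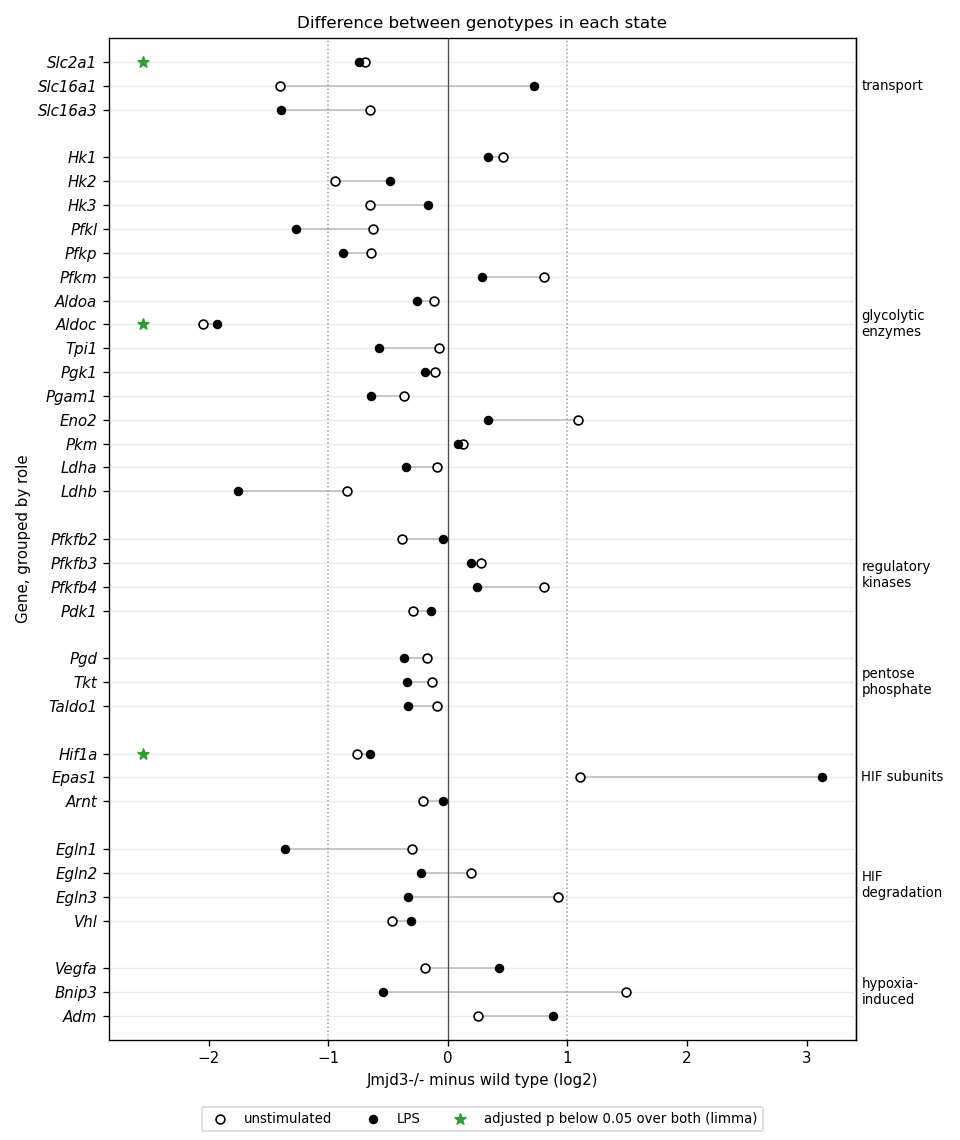
Knockout minus wild type difference on the log2 scale (horizontal axis) for each of the 35 genes (rows, grouped by role), with open circles for unstimulated cells and filled circles for LPS, dotted lines at 2-fold and stars for genes that passed the test over both states. Most symbols lie left of 0, Aldoc lies near -2 in both states, and Epas1 stands at 1.10 and 3.13.

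The LPS responses of the genotypes differed by 2-fold or more in 5 genes, in Slc16a1 and Epas1 with the higher value in the knockout and in Bnip3, Egln1 and Egln3 with the lower, against 5.19% and 4.73% of all genes. With 1 array a group these differences have no test. Slc16a1 read 10.45, 10.80, 9.04 and 11.52, so the unstimulated knockout array was the low one and the knockout array with LPS the high one, and the responses differed by 2.13. Its other probe set was under the floor on all arrays. Bnip3, a hypoxia-induced gene of mitochondrial autophagy, read 8.31, 10.30, 9.80 and 9.76. The unstimulated wild-type array stood apart from the other 3, and the responses, 1.99 in wild type and -0.04 in the knockout, differed by -2.03.

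Epas1, the gene of the alpha subunit HIF-2alpha, read 7.63, 5.62, 8.74 and 8.74. It was 4.05-fold lower with LPS in wild type, where it ended under the floor, and equal on both knockout arrays, which left the knockout 8.73-fold above wild type with LPS, a fold that rests on a background reading. Over both states its genotype effect of 2.11 ± 0.50 did not pass (limma, adjusted p = 0.0717), though it did under 2 of 9 alternative settings. The stromal markers, which stood at summed intensities of 901 and 22767 on the 2 LPS arrays, are high on the same arrays, and their part in the level of Epas1 was not tested. A dimmer probe set of Epas1 stayed between 3.70 and 4.27.

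Egln1, the main oxygen sensor of the pathway, read 9.47, 9.82, 9.17 and 8.46. Its LPS difference was 0.35 in wild-type cells and -0.72 in knockout cells. Its second probe set, at 7.27, 8.46, 7.28 and 6.76, showed the same pattern with differences of 1.19 and -0.51. Egln3, a hydroxylase gene that is itself induced by hypoxia-inducible factors, read 5.21, 6.75, 6.13 and 6.42, with an LPS difference of 1.54 in wild type and 0.29 in the knockout. Its unstimulated wild-type value lay under the floor. Bnip3, Egln1 and Egln3 thus had the higher LPS difference in wild type, and Adm had it in the knockout, while the probe sets of Vegfa disagreed.

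**Figure D4:**
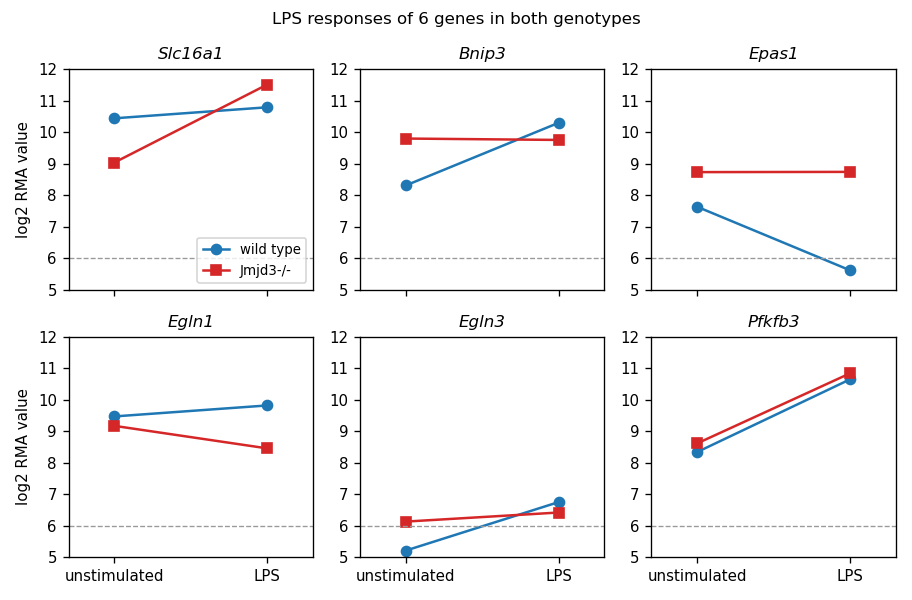
Log2 RMA value (vertical axis) of the 5 genes whose LPS responses differed by 2-fold or more, and of Pfkfb3 for comparison, unstimulated and with LPS, with 1 array per point, circles for wild type and squares for knockout. The lines of Slc16a1, Bnip3 and Egln3 cross, those of Pfkfb3 run side by side, and the dashed line marks the floor at log2 6.

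Other genes of these pathways were read from further lists. Among 34 measured other genes of glucose and pyruvate metabolism, 22 passed the floor, of which 2 rose and 6 fell with LPS. Slc2a6, a glucose transporter family member, read 6.78, 10.71, 6.36 and 10.35 and rose by 3.96 ± 0.18 (limma, adjusted p = 0.00213), more than any of the 35 genes. Gpd2, the mitochondrial glycerol phosphate dehydrogenase, also rose (1.08), while Gpd1l (-2.45), Pgm2l1 (-2.01), the monocarboxylate carrier gene Slc16a7 (-1.13) and Bpgm (-1.03) fell. Between genotypes 3 rose in the knockout and 0 fell. Pdk4, a pyruvate dehydrogenase kinase, read 4.45, 4.50, 10.10 and 9.05, the glucose transporter gene Slc2a3 6.04, 5.72, 7.79 and 7.25, and Pgm2l1 6.36, 4.07, 8.14 and 6.42. Pdk4 was thus under the floor on both wild-type arrays and above it on the arrays that carry stromal and granulocyte markers, whose part was not tested.

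Of 12 measured other pentose phosphate and NADPH genes, 9 passed the floor, and with LPS 3 fell and 0 rose (6 of 9 did not pass). They were H6pd, the glucose 6-phosphate dehydrogenase of the endoplasmic reticulum (-1.19), Prps2, which makes phosphoribosyl pyrophosphate (-0.86), and Idh1, a source of cytosolic NADPH (-1.48). Idh1 read 12.96, 11.61, 12.40 and 10.79. In the knockout H6pd rose by 1.25 and Idh1 fell by 0.69.

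Among 37 measured other hypoxia and HIF genes, 29 passed the floor, with 7 that rose and 1 that fell with LPS. Nos2 (6.03) and Edn1 (4.70), which make nitric oxide and endothelin, led the increases, from unstimulated values under the floor, followed by Ak4 (1.78), Hilpda (1.46), which coats lipid droplets, and Cited2 (0.94), an inhibitor of the HIF pathway, and the chemokine receptor gene Cxcr4 fell by 2.39. Between genotypes 8 rose and 3 fell in the knockout. Lox (3.96), P4ha2 (3.13) and Plod2 (2.66), all enzymes of collagen processing, rose with Vldlr (3.03) and Angptl4 (2.09), on the arrays where the stromal markers were high. P4ha2 (4.66 and 4.88) and Plod2 (4.56 and 4.66) lay under the floor on both wild-type arrays. Vldlr did so on the unstimulated wild-type array (5.55) and Angptl4 on the wild-type LPS array (5.60). The sizes of these differences, except that of Lox, thus rest on background readings in wild type. Hilpda fell by 1.86, and the other two that fell, named after their values were seen, were Ak4 (-1.29) and the transcription factor gene Bhlhe40 (-1.44). The remaining genes that rose in the knockout were Ddit4 (1.66), Cited2 (1.14) and Cxcr4 (0.87). Hilpda read 8.93, 10.69, 7.37 and 8.54 and Ak4 9.89, 12.02, 8.95 and 10.38. For both, as for Hif1a and Pfkp, values were higher with LPS and lower in the knockout, though the genotype effect of Pfkp did not pass. Cited2 went the other way between genotypes, at 10.69, 11.52, 11.72 and 12.77, higher with LPS and higher in the knockout.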

How the data were processed

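Gene expression was measured on 4 Affymetrix arrays, 1 for each group, hybridised with biotinylated cRNA made with the NuGEN Ovation system, per the labels' protocols. Values were deposited as log2 intensities of probe sets, which the authors made with RMA, per the submitters' processing notes; its version and background settings are not given there. RMA makes the array distributions nearly equal, so a shift of all genes in 1 direction would be reduced.

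Of 45101 probe sets, 34945 named 1 gene, 932 several, and 9160 are unnamed here; 64 were controls. For 34741 the gene identifier matched RefSeq (GRCm38.p6). The brightest probe set stood for each gene. Differences between single arrays were untested. Shared effects were fitted with limma 3.58.1 (R 4.3.3), additive in genotype and LPS, with an intensity trend, 1 residual and 3.84 prior degrees of freedom, over 9385 genes at log2 6 or more on an array. Whether arrays came from separate animals is unstated. The p-values set an effect against how far the genotypes' LPS responses differ, with a spread shared over all genes. They do not measure a spread between like arrays, and the number of arrays limits the precision. Tested on simulated data with 50 genes changed at each size, the fit recovered 14% of changes of log2 1 and 86% of log2 2 for LPS, and 14% and 84% for genotype, with 15 and 27 false calls. Far fewer genes were changed in the simulated data than the 2823 and 893 called here for LPS and genotype. No simulated response differed between genotypes. These shares therefore do not give the sensitivity of the fit on these arrays. Epas1, with a genotype effect of 2.11, did not pass, so a gene without a call may still differ by 2-fold.

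The members and all lists were chosen with earlier results of these data known. All members are accounted for, with other probe sets where their sign differed above the floor. Of further lists, genes that passed or differed 2-fold in both genotypes or states were named, up to 6 a list by size and effect. Alternatives changed the floor, the probe set rule, the scaling, an added constant of 64, and limma's trend, prior and model. The LPS check, reference, proliferation and marker lists were also read. Promoter windows were checked for orientation by the commonest position of TATAAA, at -30 and -29 on the plus and minus strands. Tables were made in Python 3.11.15 with pandas 2.3.3 and numpy 2.4.6.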

Additional observations from a re-analysis of the deposited data

Results flagged for a closer look

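Signs were opposite between the groups, by at least 0.3 on both sides, in 4 of the 35 genes. Each group held 1 array, so none of these differences was tested. Slc16a1 differed between genotypes by -1.40 unstimulated and by 0.72 with LPS. Bnip3 differed the other way, by 1.49 unstimulated and by -0.54 with LPS, and Egln3 by 0.92 and -0.33. For Egln1 the LPS difference was 0.35 in wild-type and -0.72 in knockout cells. Over all 9385 genes, 4.29% had genotype differences and 2.57% LPS differences of opposite sign by this size.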

How the results depend on the processing

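No paired analysis was possible because each group held 1 array and the labels carry no replicate numbers. Leaving out an array leaves no residual degree of freedom in the additive model, so the single-array differences stand in its place. For the genes taken singly no call changed direction under the alternatives run. Signs of shared effects without a call turned under quantile normalization for Tpi1 (-0.0588) and Ldha (-0.0112) and with the median of all probe sets for Egln1 (0.0773) and Pdk1 (-0.10), as did the genotype effect of Slc16a1 with that median (0.0668). Differences between single arrays under 2-fold turned sign in 19 cases, 13 of them with that median, among them Arnt with LPS in the knockout (-0.37 to 0.45) and Vhl with LPS in wild type (-0.37 to 0.07).

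Fitted without the other factor, 267 of all genes were called for LPS in place of 2823 and 111 for genotype in place of 893. Of the 35 genes 1 (Pfkfb3) rose and 0 fell with LPS, and 0 were lower in the knockout. Without the intensity trend 4 of the 35 rose, 3 fell, and 1 (Aldoc) was lower in the knockout. With a floor of log2 8, or with none, 3 fell with LPS. With the floor of log2 8 the counts over all genes were 461 for genotype, 1341 for LPS in wild type, 1561 in the knockout, 777 and 687 between genotypes without and with LPS, and 544 for the difference of responses, against 893, 2084, 2421, 1382, 1330 and 931. Fewer genes pass that floor. Of the 35, 0 were then lower with LPS in wild type and 2 in the knockout. Adding 64 gave 1292, 1539, 876, 813 and 437 for these 5 single-array counts, 1 gene lower with LPS in wild type, 1 higher in unstimulated knockout and 1 with a lower response in the knockout. It also moved the share of higher genes among all calls for LPS in the knockout from 41.6% to 51.6%. With the median of all probe sets 1 gene was lower with LPS in wild type and 4 in unstimulated knockout. Under quantile normalization 5 of the 35 were lower in the knockout (Pfkp and Ldhb added) and 1, Epas1, higher, as was 1 when 64 was added. Eno2, Pkm, Ldhb and Tkt lost their LPS call under 3 or more of 9 alternatives. The cause was not tested where none is named. Probe sets near log2 6 are close to background, which limits Pfkfb2, Pfkfb4, Pfkm, Egln3 and Aldoc.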

Other observations

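Common reference genes and cell division genes were read beside the 35 genes. Of 9 measured reference genes, such as Actb and Tbp, all above the floor on all arrays, Gusb fell with LPS (-0.91) and 8 of 9 did not pass with LPS. Proliferation genes went down with LPS in 7 of 9 cases and were higher in the knockout in 4 of 9, with medians of -1.76 and 1.09, and their part in the metabolic genes' differences was not tested. Of the T, B and NK cell markers, the 2 that passed the floor were lower on the knockout arrays in both states. The linear intensities of 7 measured T, B and NK cell markers summed to 318, 370, 120 and 135, of 7 erythroid and megakaryocyte markers to 9716, 7398, 6859 and 6453, and of 8 mast cell, basophil and eosinophil markers to 647, 1575, 574 and 1990.3, in the order used above. Pf4 was the brightest marker of the second list on every array, while Ppbp, Vwf and Car2 were at least 2-fold lower in the knockout in each state. In the third list Hdc was the brightest on both LPS arrays (9.53 and 10.44). Its other members did not move alike, as Mcpt8 (-2.07), Fcer1a (-3.75) and Siglecf (-1.85) fell in the knockout and Prg2 (4.91) rose.

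Probe sets of the same gene could be compared with the brightest in 128 cases over the 4 differences between single arrays, where both passed the floor. They had opposite signs in 16, and in 0 of these did either reach 2-fold. The largest such case was Arnt with LPS in wild type, at -0.53 on the brightest and 0.85 on another.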
